A study of Mus musculus with 12 samples.

Results

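The cytosolic ribosomal protein genes were followed in polyadenylated RNA from dissected hippocampal CA1 tissue of mice, in 6 libraries after myocardial infarction (MI, made by tying off a coronary artery) and 6 libraries after the same kind of surgery without ligation (Sham). The labels give no strain, age, sex, genotype or time after surgery for either group. Whether the libraries are of separate animals is also unstated, and p-values therefore describe the spread among these libraries alone. The genes were chosen by name: protein-coding symbols that begin with Rpl or Rps and a digit, together with Rplp0, Rplp1, Rplp2 and Rpsa, and without ribosomal S6 kinases, Rps19bp1 and named pseudogenes. Of 85 such genes, 81 had a mean of at least 10 counts over the 12 libraries, 32 of the small (40S) subunit and 49 of the large (60S) subunit, among 48709 gene IDs in the count files. The 4 left out were Rpl10l with a mean of 0 counts, Rpl39l with 0.917, Rps27rt with 8.75 and Rpl3l with 8.83. Just inside the minimum stood Rpl23a with 15.75, Rpl24 with 20.25 and Rps29 with 26.7. All 81 also passed the filter on low counts that left 16829 genes to test.

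A ribosome joins a 40S subunit, which holds the mRNA and reads its codons, to a 60S subunit, which forms the peptide bond and lets the new chain out through a tunnel. Each subunit is built in the nucleolus from ribosomal RNA and a fixed set of proteins, nearly all present as a single copy. Most of these mRNAs begin with a run of pyrimidines (the 5′ terminal oligopyrimidine, or TOP, element) through which the kinase mTOR and the RNA-binding protein Larp1 control their translation. In neurons the ribosome supplies proteins in the cell body and in dendrites, where local synthesis is known to take part in lasting synaptic change. Reads of these genes are hard to place, because mammalian genomes carry many processed pseudogenes copied from them.

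Annotated start sites give a view of the TOP element. RefSeq (GRCm38.p6) promoter windows of 300 bases, 250 before and 50 after the start, were matched to 61 of the 81 genes, with 72 windows. The pentamers CTTTC or CTTTT on the gene strand, with their C within 5 bases of the start, stood in 13 of the 72 windows (18.1%) and in 2.99% of all 32851 windows. Other runs of pyrimidines at the start were not counted, so 18.1% is not the share with a TOP element. The 30 bases around the start are shown for the 3 of those 13 genes that the comparisons below describe, with the pentamer in capitals, to let the element be seen. They are Rpl38 (chr11:114668565-114668594, plus strand), Rplp2 (chr7:141447636-141447665, plus strand) and Rps27 (chr3:90213634-90213663, minus strand), each written 5′ to 3′ on the gene strand.
Rpl38: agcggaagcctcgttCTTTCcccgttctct
Rplp2: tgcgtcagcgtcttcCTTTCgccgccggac
Rps27: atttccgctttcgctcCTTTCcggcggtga
In Rpl38 and Rplp2 the C of the pentamer is the annotated first base itself, and in Rps27 it lies 1 base after it.

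Other motifs were counted in the same windows on both strands. CCGGAAG, a site of ETS family factors, was present in 36.1% of the ribosomal protein windows and 8.86% of all windows. AAGATGGC, a YY1 site, was present in 11.1% against 2.75%, and GGGCGG, an Sp family site, in 62.5% against 35.7%. TATAAA, the TATA box, was present in 9.72% against 13.6%. On both strands and at any place in the window, CTTTC or CTTTT was found in 93.1% of the ribosomal protein windows and 78.0% of all windows, and its matches overlapped an AAGATGGC match in 1 window, a GGGCGG match in 1 and a TATAAA match in 3. A match describes letters in the window, and the data hold no measure of binding at these sites.

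The shallowest library was Sham 1 with 20764133 counts and the deepest Sham 5 with 35643127. Sham 1, 2 and 3 and MI 1, 3 and 4 held more counts of Y-linked genes than of Xist, the RNA of the inactive X chromosome, and the remaining 6 held more of Xist, so both kinds stood in each group; the 2 sets were made from the counts and not by the study. Defining markers of CA1 pyramidal neurons were present in every library, with summed levels of 1038 to 1381 counts scaled to library size (CPM) in MI and 658 to 1647 in Sham. Sham 1 had the lowest CA1 sum and the highest sum of meningeal fibroblast markers (390 CPM), and Sham 6 had the highest sum of dentate granule cell markers (644 CPM, against 31.4 to 157 in the other Sham libraries). The highest CA1 sum was that of Sham 5. Myelin markers ran from 4919 to 6224 CPM in MI and from 2646 to 5424 in Sham, and 8 of 8 had a positive log2 fold change, with a median of 0.52. Tissue of more than 1 cell type was measured in bulk, so fewer cells of a type and less RNA per cell cannot be told apart.

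No ribosomal protein gene passed the test between MI and Sham, and the shifts were small. Most of the genes had slightly higher values after MI: the log2 fold change, MI minus Sham, was positive for 64 of 81, with a median of 0.063 and a range from -0.29 for Rpl11 to 0.28 for Rps13. Over all 16829 genes tested 47.6% were positive and the median was -0.0071. Rps15, Rps21 and Rps14 of the small subunit and Rpl41 and Rpl37 of the large subunit were among the genes with the smallest p-values, at log2 fold changes of 0.11 to 0.16. The clearest values in the other direction were those of Rpl11 and Rpl5, the partners of 5S ribosomal RNA.

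In edgeR's quasi-likelihood test, adjusted over all genes by the Benjamini-Hochberg method, 0 of 81 members passed the threshold of 0.05, beside 0% of all genes, and the smallest adjusted p of a member was 0.597. At an unadjusted p under 0.05 stood 9 members with higher values (3.95% of all genes did so) and 1 with lower values (3.59% of all genes). These counts moved with single libraries. Without MI 2 there were 14 with higher values, and without MI 1, MI 4 or Sham 4 there were 6. Without Sham 5 there were 4 with lower values and without Sham 3 there were 0. DESeq2 called 0 members and 0.0606% of all genes. No member had all MI libraries on 1 side of all Sham libraries, beside 0.25% of all genes above and 0.16% below. The median within-group SD of log2 CPM was 0.10 for the members and 0.17 for all genes tested, so most of the fold changes were smaller than the spread between libraries.

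**Figure D1:**
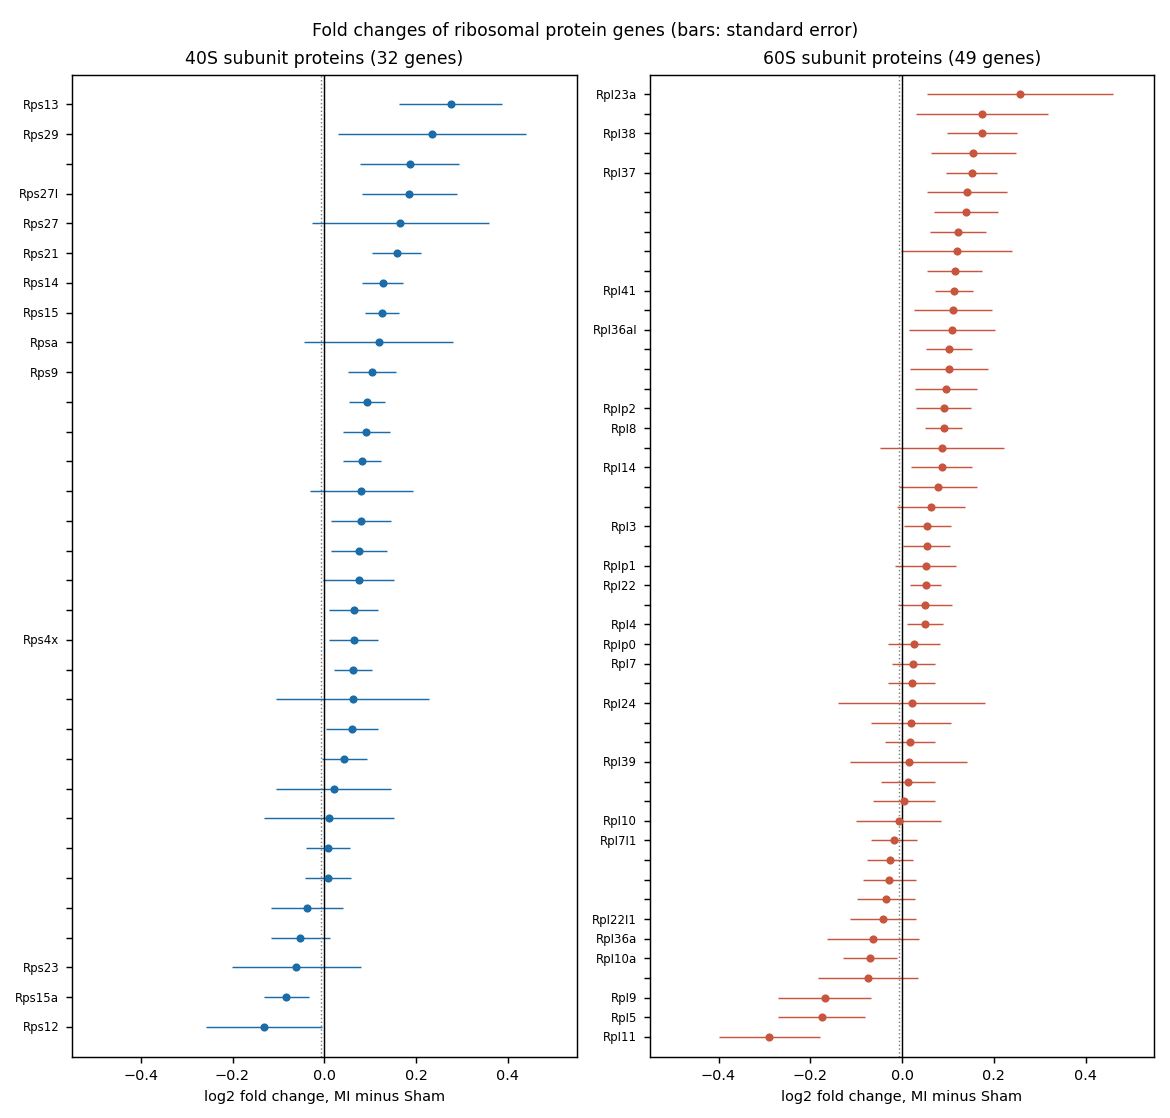
Log2 fold change, MI minus Sham, on the x axis for the 32 genes of the 40S subunit (left) and the 49 genes of the 60S subunit (right), with bars of 1 standard error and a dotted line at the median of all genes tested (-0.0071). Most points lie to the right of 0, with Rpl11, Rpl5 and Rpl9 farthest to the left, and no gene passed the adjusted threshold; genes described in the text are labelled.

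The ribosomal proteins together took a small share of the counts. Their summed counts were 0.257% ± 0.00808 of all gene counts in MI (SD, n = 6) and 0.247% ± 0.00853 in Sham (SD, n = 6). The shares ran from 0.245% to 0.269% in MI and from 0.234% to 0.258% in Sham, so the groups overlapped. The 40S genes held 0.1099% in MI and 0.1050% in Sham, and the 60S genes 0.147% and 0.142%. Counts of the 1180 pseudogenes that share sequence with these genes or carry their names were also summed. They equalled 3.12% of the members' counts in MI and 3.24% in Sham. The counting of reads that fit several places was not given. Any such reads left uncounted are missing from both sums, so the sums cannot show the effect of shared sequence on the share.

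Libraries were also compared by the mean deviation of the 81 genes from their own means in log2 CPM. It was highest in MI 3 (0.080), MI 4 (0.065) and MI 1 (0.045), and lowest in Sham 3 (-0.058), Sham 6 (-0.048), Sham 5 (-0.039) and Sham 4 (-0.038). The groups overlapped: MI 2 stood at -0.035 and MI 6 at -0.0020, while Sham 2 stood at 0.022. In MI 3, 64 of the 81 genes were above their own mean and in MI 1 62 were, against 26 in MI 2 and 23 in Sham 3. The 3 MI libraries with the highest values were the 3 MI libraries with Y-linked counts.

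**Figure D2:**
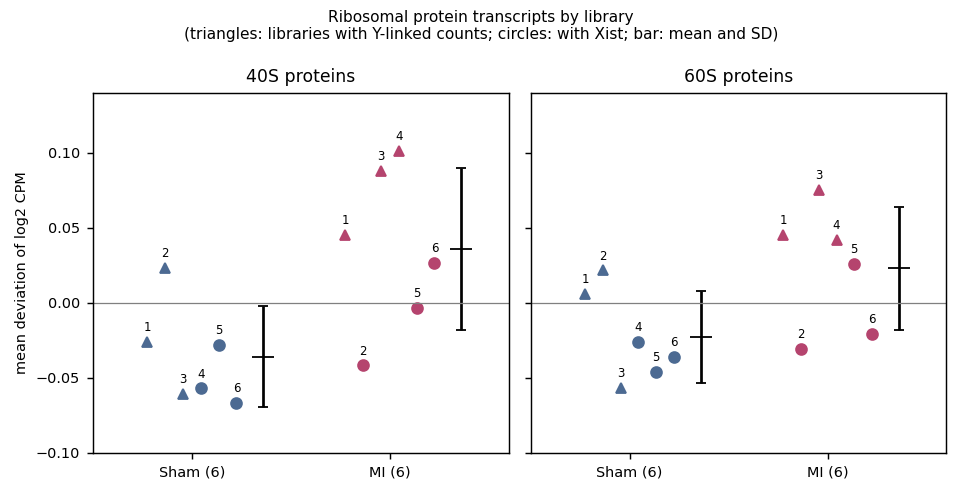
Mean deviation of log2 CPM of the 40S genes (left) and 60S genes (right) from their means over 12 libraries, for each Sham and MI library (numbered), with the group mean and SD as bars; triangles are libraries with Y-linked counts and circles are those with Xist. MI 1, MI 3 and MI 4 stand highest in both subunits, and MI 2 lies among the Sham libraries.

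The first principal component of the members' log2 values held 22.7% of their variance, against 38.0% for all genes tested. Genes were not scaled to equal spread for it, so the most variable ones weigh most. These shares therefore cannot show whether the members moved together. The steadiest within groups were Rpl4 and Rpl22, with SDs of 0.039 and 0.040 on the log2 scale, and the most variable were Rps29 and Rps27, with 0.324 and 0.320. Depth went with this: Rpl4 had a mean of 8356 counts, Rps27 28.2 and Rps29 26.7.

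**Figure D3:**
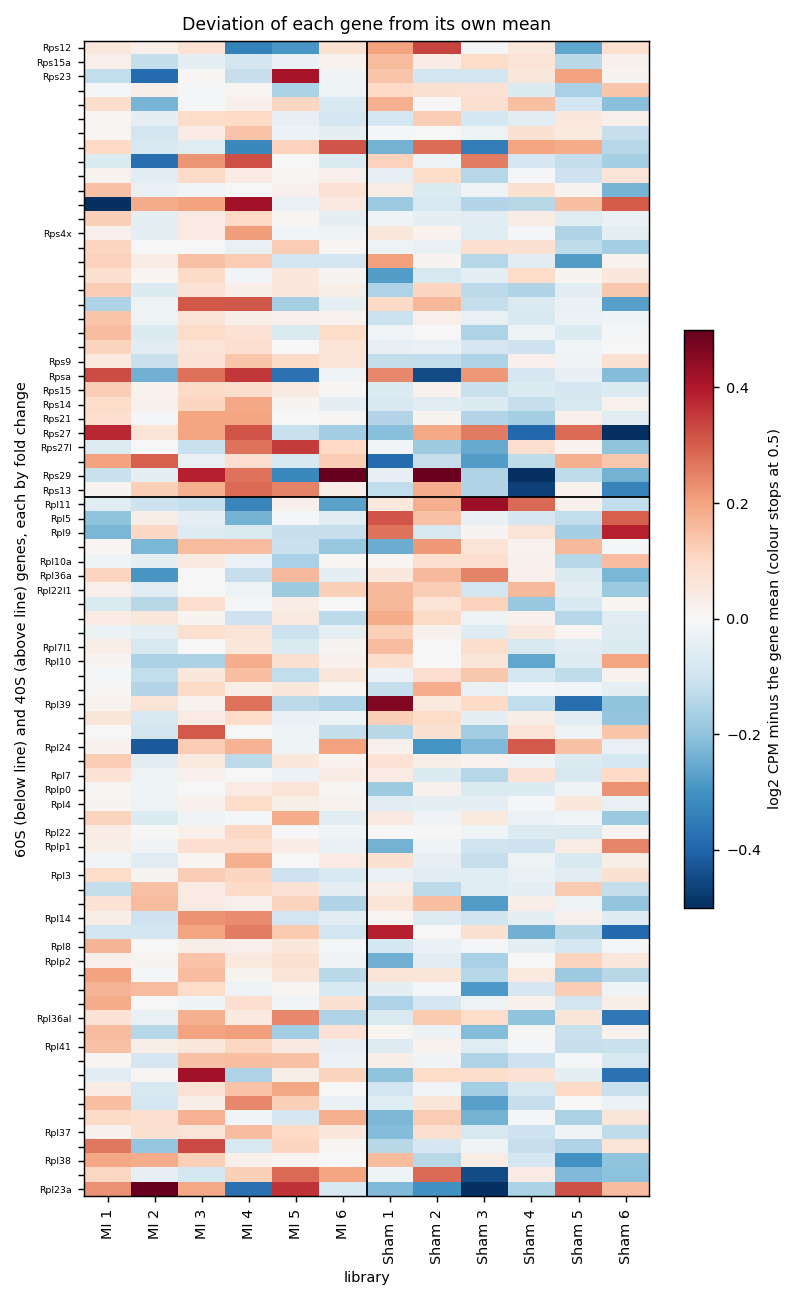
Deviation of each gene's log2 CPM from its own mean (colour, limited at 0.5 in either direction) in the 12 libraries on the x axis, with 40S genes above the line and 60S genes below it, each ordered by fold change and labelled where the text describes it. MI 1, MI 3 and MI 4 are red over most genes, and MI 2, Sham 3, Sham 4, Sham 5 and Sham 6 blue over most. The strongest single colours fall on genes with low counts such as Rps29, Rps27 and Rpl23a.

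In the small subunit 27 of 32 genes had a positive log2 fold change, with a median of 0.076, and 5 had an unadjusted p under 0.05, all of them higher in MI. Rps15 (ENSMUSG00000063457) lies on chromosome 10 from 80292453 to 80294114 and encodes a protein at the head of the subunit near the decoding site. Its level was 93.5, 97.4 and 101.4 CPM in MI (lowest, median and highest) and 86.2, 88.7 and 94.5 CPM in Sham. All 6 MI libraries stood above the Sham median, and only Sham 2 reached into the MI range. The log2 fold change was 0.13 with a standard error (SE) of 0.037, an unadjusted p of 0.00426 and an edgeR adjusted p of 0.597.

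Rps21, a small 40S protein specific to eukaryotes, was at 63.9, 66.5 and 73.9 CPM in MI and 57.4, 60.2 and 65.5 in Sham. MI 3 and MI 4 were the highest, and Sham 5 and Sham 2 overlapped the lower MI libraries. Its log2 fold change was 0.16 (SE 0.054), with an edgeR adjusted p of 0.597. Rps14, a 40S platform protein whose human counterpart is lost in a deletion form of myelodysplastic syndrome, was at 79.6, 85.7 and 94.1 CPM in MI and 76.0, 78.2 and 83.4 in Sham. Sham 6 reached into the MI range, and the log2 fold change was 0.13 (SE 0.045).

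Rps13, a 40S protein at the interface with the large subunit, had the largest positive fold change of the members at low depth. Its level was 3.64, 4.01 and 4.39 CPM in MI and 2.62, 3.29 and 4.09 in Sham, from a mean of 94.4 counts. Sham 2 and Sham 5 stood within the MI range and Sham 4 was the lowest. The log2 fold change was 0.28 (SE 0.11), with an edgeR adjusted p of 0.623.

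Rps15a and Rps12 had the smallest p-values among 40S genes with lower values in MI, and neither passed. Rps15a, a protein of the 40S body, was at 81.7, 86.4 and 90.5 CPM in MI and 80.9, 92.2 and 99.1 in Sham. None of the MI libraries reached the Sham median, but Sham 5 was the lowest library of all 12, and the log2 fold change was -0.083 (SE 0.049). Rps12, a protein of the 40S beak, was at 1.62, 2.10 and 2.16 CPM in MI and 1.71, 2.14 and 2.58 in Sham, with a log2 fold change of -0.13 (SE 0.13).

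In the large subunit 37 of 49 genes had a positive log2 fold change, with a median of 0.052. Rpl41, the smallest ribosomal protein, was at 55.6, 59.2 and 63.2 CPM in MI and 52.7, 54.7 and 57.8 in Sham. MI 1 was highest, and the groups overlapped at MI 6. The log2 fold change was 0.11 (SE 0.041), with an edgeR adjusted p of 0.597. Rpl37, a zinc-binding protein of the subunit, was at 15.3, 15.9 and 16.8 CPM in MI and 13.0, 14.2 and 15.96 in Sham, with a log2 fold change of 0.15 (SE 0.055). All 6 MI libraries stood above the Sham median of both genes.

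Rpl38, whose loss in mice is known to alter the axial skeleton through translation of Hox mRNAs, was at 14.7, 15.5 and 16.8 CPM in MI and 11.9, 13.6 and 16.4 in Sham. Sham 1 and Sham 3 stood within the MI range and Sham 5 was lowest. The log2 fold change was 0.17 (SE 0.077), with an edgeR adjusted p of 0.639. Rpl8, which lies close to the peptidyl transferase centre, was at 172, 177 and 194 CPM in MI and 163, 168 and 172 in Sham, with a log2 fold change of 0.091 (SE 0.041). Its highest value, in MI 1, stood apart from the other MI libraries.

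Rpl11 and Rpl5 bind 5S ribosomal RNA and, outside the ribosome, are known to bind the p53 regulator Mdm2. Both had negative values, with a median of -0.23 for the pair. Rpl11 (chromosome 4, 136028265 to 136053428) was at 2.40, 2.79 and 3.08 CPM in MI and 2.77, 3.28 and 4.06 in Sham. No MI library reached the Sham median, MI 4 was lowest and Sham 3 highest, and the ranges overlapped through MI 1, MI 2, MI 3 and MI 5 on 1 side and Sham 5 and Sham 6 on the other. The log2 fold change was -0.29 (SE 0.11), with an unadjusted p of 0.0196 and an edgeR adjusted p of 0.599.

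Rpl5 (chromosome 5, 107900502 to 107909005) was at 5.10, 5.80 and 6.12 CPM in MI and 5.51, 6.25 and 7.47 in Sham. No MI library reached the Sham median, though Sham 3, Sham 4 and Sham 5 lay within the MI range, and the log2 fold change was -0.18 (SE 0.096), with an edgeR adjusted p of 0.709. Rpl11 had a mean of 78.3 counts and Rpl5 of 155. Rpl5 overlaps the antisense gene Fam69a, and the library kit named in the labels does not mark strand, so reads of the overlapping exons cannot be told apart. Of the 50-base windows of the principal transcript, 93.8% of those of Rpl5 and 62.2% of those of Rpl11 also occur exactly in another gene.

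Rpl9 and Rpl10a were the other 60S genes named for lower values. Rpl9, next to the base of the stalk, was at 4.43, 4.86 and 5.58 CPM in MI and 4.63, 5.34 and 6.77 in Sham, with a log2 fold change of -0.17 (SE 0.10). Sham 6 was its highest library. Rpl10a, the protein of the mobile L1 stalk, was at 12.5, 13.8 and 14.5 CPM in MI and 12.7, 14.5 and 15.6 in Sham, with a log2 fold change of -0.069 (SE 0.059). Exactly shared windows made up 93.3% for Rpl9 and 88.1% for Rpl10a, and Rpl10a also overlaps an antisense gene.

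The acidic stalk recruits translation factors to the ribosome and is built from Rplp0, the scaffold, with Rplp1 and Rplp2 as its dimers. The log2 fold changes were 0.026 (SE 0.057), 0.052 (SE 0.067) and 0.091 (SE 0.060). Rplp1 was at 114, 120 and 124 CPM in MI and 99.2, 112 and 138 in Sham, so that both the lowest library (Sham 1) and the highest (Sham 6) were Sham. Rplp0 had the same lowest and highest libraries, from 51.7 in Sham 1 to 68.2 CPM in Sham 6, with 57.5 to 61.2 in MI. All 6 MI libraries were above the Sham median for each of the 3 stalk genes, and for none of them did the groups separate.

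A list of 9 proteins of the peptide exit tunnel and its rim, which meets the nascent chain and its binding factors, was followed. Of these genes 9 of 9 had positive values, with a median of 0.10 and a range of 0.014 to 0.26. Rpl4, which also reaches into the tunnel, was not on the list and had a log2 fold change of 0.049 (SE 0.039). Of all 60S genes 75.5% were positive. In the libraries with Y-linked counts 7 of the 9 tunnel genes were positive, and in those with Xist 9. Only Rpl38 among the tunnel genes had an unadjusted p under 0.05. The highest value, that of Rpl23a, came from a mean of 15.75 counts and had an SE of 0.20. Of the 19 genes on the list of Diamond-Blackfan anemia, an inherited failure of red cell production caused by loss of 1 copy of a ribosomal protein gene, 14 were positive, with a median of 0.076; Rpl11 was the 1 gene of that list with an unadjusted p under 0.05.

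Levels of different genes were compared per length, as CPM per kilobase of all annotated exons (RPKM, mean over 12 libraries). Ribosomal protein transcripts did not stand at 1 level: the median was 7.17 RPKM and the range ran from 0.613 for Rpsa to 234.5 for Rplp1, a ratio of 383 (234 by the longest or principal transcript, with Rpsa at 1.002). After Rplp1 came Rpl4, which reaches into the exit tunnel, with 161 ± 5.11 RPKM, Rps15 with 148 ± 8.14 and Rpl8 with 127 ± 6.21 (SD, n = 12), and Rplp1 itself was at 235 ± 19.4 (SD, n = 12). Rps15 and Rpl4 ran from 137 to 161 and from 155 to 171 RPKM, so their ranges met, whereas Rplp1 at 199 to 277 RPKM lay above both by this length. The 10 deepest genes held 53.3% of all member counts.

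The lowest levels were those of Rpsa, the laminin receptor protein of the small subunit, Rpl23a, at the tunnel exit, with 0.715 ± 0.167 RPKM, Rpl24, at the bridge between subunits, with 0.756 ± 0.109, and Rps23, at the decoding centre, with 0.999 ± 0.139 (SD, n = 12). Their ranges over libraries overlapped: 0.441 to 0.771 for Rpsa, 0.446 to 0.999 for Rpl23a, 0.560 to 0.926 for Rpl24 and 0.758 to 1.32 for Rps23. With so few counts the SEs of the log2 fold changes were large: 0.26 (SE 0.20) for Rpl23a, 0.12 (SE 0.16) for Rpsa, 0.021 (SE 0.16) for Rpl24 and -0.061 (SE 0.14) for Rps23.

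Shared sequence went with the level. A window of 50 bases, the read length, with at most 1 mismatch was shared with a pseudogene by 80 of the 81 genes. The 7 genes with under 10% of windows shared exactly with another gene had a median of 24.5 RPKM, the 33 genes with 10% to 50% had 10.02, and the 41 genes with over 50% had 4.66. The 15 lowest genes shared a median of 80.7% of their windows and the 15 highest 26.8%. The other gene could lie on either strand and overlap the member itself, as Fam69a does Rpl5. Percentages were taken over the principal transcript, whatever its length. Rps15a and Rps20, both under 10%, have principal transcripts of 5179 and 3706 bases. With at most 1 mismatch, they share windows with 18 and 12 pseudogenes. The counting of reads that fit several places was not given in the sources used here, and the part of shared reads in these levels was not tested. Median log2 fold changes in the 3 classes were 0.051, 0.091 and 0.052, with positive values in 5 of 7, 30 of 33 and 29 of 41 genes.

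**Figure D4:**
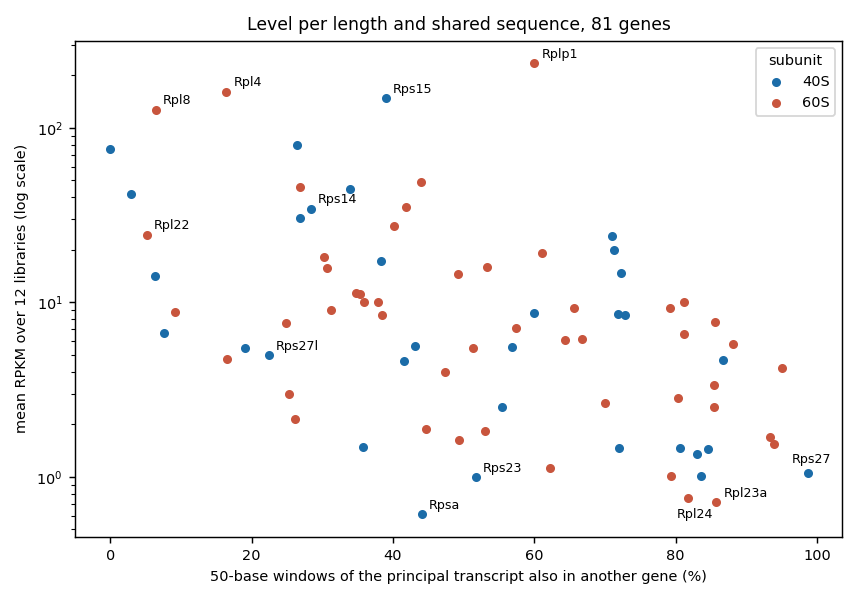
Mean RPKM over 12 libraries (y axis, log scale) against the percentage of 50-base windows of the principal transcript found exactly in another gene (x axis), 1 point per gene, coloured by subunit. Genes with few shared windows such as Rpl8 and Rpl22 lie high and genes such as Rps27 and Rpl23a low. Exceptions include Rplp1, high at 60% shared, and Rps20, at 7.57% shared but with 6.71 RPKM below the median of 7.17.

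Some ribosomal proteins have a close paralogue. Rpl22 was at 24.5 RPKM and Rpl22l1 at 9.27, with log2 fold changes of 0.051 (SE 0.035) and -0.041 (SE 0.073). Rpl7 was at 15.9 RPKM and Rpl7l1 at 8.78, with log2 fold changes of 0.025 (SE 0.047) and -0.018 (SE 0.050). By exon length the parent was the higher gene of both pairs in every library. Exactly shared windows made up 5.19% for Rpl22 and 65.6% for Rpl22l1, and 53.3% for Rpl7 and 9.19% for Rpl7l1. By the length of the principal transcript Rpl7 was also higher than Rpl7l1 on average (36.7 against 11.8 RPKM), whereas Rpl22 and Rpl22l1 stood at 34.7 and 33.4.

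In the other 2 pairs the copy was the higher one by exon length. The X-linked Rpl36a was at 3.38 RPKM and its autosomal copy Rpl36al at 7.60, with log2 fold changes of -0.063 (SE 0.099) and 0.11 (SE 0.094). Rps27 was at 1.05 RPKM and Rps27l, a p53-induced copy, at 4.99, with log2 fold changes of 0.17 (SE 0.19) and 0.19 (SE 0.10). By the principal transcript the order of the first pair turned, with 11.6 RPKM for Rpl36a and 8.06 for Rpl36al, while Rps27l (8.17) was still above Rps27 (3.16). Exact sharing differed within these pairs, at 98.6% of windows for Rps27 and 22.4% for Rps27l, and 85.5% for Rpl36a and 24.9% for Rpl36al. The copies Rpl10l and Rpl39l, known from the germline, Rpl3l, known from muscle, and Rps27rt were below the count minimum.

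The 4 X-linked genes had log2 fold changes of 0.064 (SE 0.054) for Rps4x, -0.0069 (SE 0.093) for Rpl10, 0.014 (SE 0.13) for Rpl39 and -0.063 (SE 0.099) for Rpl36a. Rps4x, a 40S protein, was at 23.4, 24.2 and 27.9 CPM in MI and 21.8, 23.7 and 25.1 in Sham. Rpl10, which completes the 60S subunit late in its assembly, was at 4.58, 5.18 and 5.80 CPM in MI and 4.28, 5.23 and 5.88 in Sham. Rpl39, a tunnel protein, was at 6.02, 6.78 and 8.08 CPM in MI and 5.16, 6.54 and 9.22 in Sham. The groups overlapped for all 4 genes, and Rps4x in MI 4 stood above all the other libraries.

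The difference between MI and Sham was then taken in each sex-linked set of libraries, 3 against 3. In the libraries with Y-linked counts 61 of 81 genes were positive, with a median of 0.084, beside 48.4% of all genes. In the libraries with Xist 51 of 81 were positive, with a median of 0.035, beside 48.2% of all genes. No member passed the adjusted threshold in either set, where 1.26% and 0% of all genes did. At an unadjusted p under 0.05 stood 14 members in the first set (16.3% of all genes) and 1 in the second (1.27% of all genes).

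The difference between the sets was tested with an interaction term, in which 0 members passed (0.0119% of all genes) and the smallest edgeR adjusted p of a member was 0.516. An unadjusted p under 0.05 was reached by 4 members, beside 8.24% of all genes. These were Rpl14, with 0.21 in the Y-linked set and -0.053 in the Xist set, Rplp2 with 0.22 and -0.031, Rps9 with 0.21 and -0.0053, and Rpl3 with 0.15 and -0.048. Rpl14 and Rpl3 are 60S proteins, the latter with a loop that reaches the peptidyl transferase centre, Rplp2 belongs to the stalk, and Rps9 sits at the mRNA entry channel. Rpl11 was at -0.40 (SE 0.17) and -0.18 (SE 0.17) in the 2 sets, and Rpl5 at -0.31 (SE 0.13) and -0.045 (SE 0.14). Myelin markers had medians of 0.98 and 0.16 in the same sets, and their part in the values of the ribosomal genes was not tested.

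**Figure D5:**
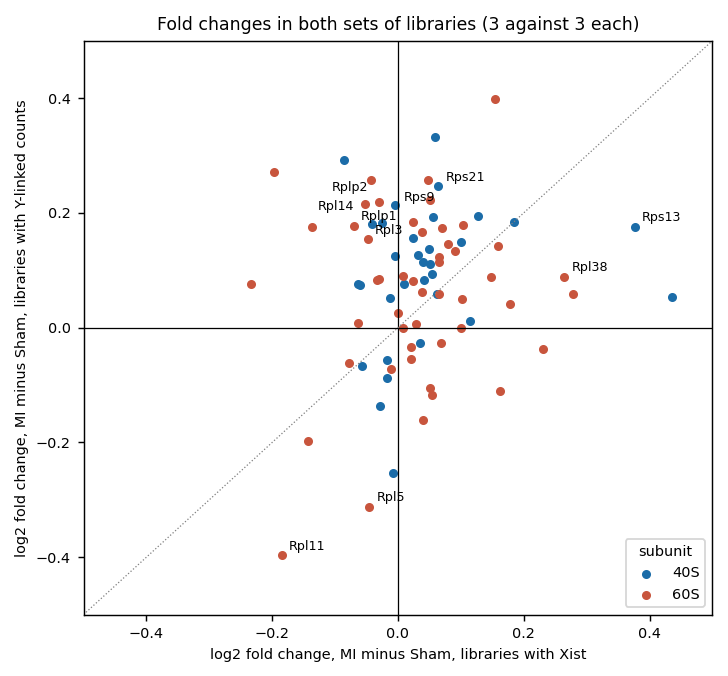
Log2 fold change, MI minus Sham, with the Y-linked set of libraries on the y axis and the Xist set on the x axis, 3 against 3 libraries each, 1 point per gene coloured by subunit, with a dotted line of equal values. Most points lie above 0 on the y axis, Rpl11 and Rpl5 lie below 0 on both, and Rpl14, Rplp2 and Rps9 lie above 0 on the y axis only.

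The authors' deposited tables of genes higher and lower in MI hold 542 and 517 genes, and 6 of the 81 ribosomal protein genes are among them. The authors' deposited table of higher genes lists Rpl38 with a log2 fold change of 0.18 (adjusted p = 0.0198), Rps15 with 0.11 (adjusted p = 0.0181), Rps14 with 0.11 (adjusted p = 0.0197), Rpl41 with 0.10 (adjusted p = 0.0393) and Rps21 with 0.10 (adjusted p = 0.0463). These 5 are 6.17% of the members, where the table holds 3.13% of all genes tested. The authors' deposited table of lower genes lists Rpl11 with -0.15 (adjusted p = 0.0249), where the table holds 2.97% of all genes tested. From the counts the same 6 genes had fold changes of the same sign and none passed. The deposited per-library values varied less than log2 CPM from the counts: for Rpl11 the authors' deposited table gives SDs of 0.032 in MI and 0.061 in Sham, and the counts 0.129 and 0.193. In the authors' deposited values the MI and Sham ranges did not meet for Rpl11, Rps15, Rps14 and Rpl38, whereas from the counts they overlapped. For Rpl11 the deposited values ran from 7.68 to 7.77 in MI and from 7.80 to 7.96 in Sham. For Rpl41 and Rps21 the deposited ranges overlapped. The making of the authors' values was not given in the sources used here.

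None of the ribosome's partners on the lists passed the adjusted test. Fau, a 40S protein made as a fusion with a ubiquitin-like protein, and the 40S scaffold Rack1 had log2 fold changes of 0.034 (SE 0.12) and 0.044 (SE 0.042). Of 18 other TOP mRNAs, mostly translation factors, 13 were positive with a median of 0.023, led in p by Eif3k at 0.094 (SE 0.051) and Eef1b2 at 0.078 (SE 0.045). Host RNAs of small nucleolar RNAs, which also carry the TOP element, were positive in 5 of 7 with a median of 0.076, with Snhg8 at 0.20 (SE 0.093) and Gas5 at 0.076 (SE 0.043).

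Genes of the machinery that builds ribosomes had values on both sides of 0. Of 44 biogenesis factors 24 were positive, with a median of 0.0041, and an unadjusted p under 0.05 was reached only by Utp14a at -0.15 (SE 0.059) and Ltv1 at -0.14 (SE 0.059), both factors of 40S assembly. RNA polymerase I and its factors were positive in 8 of 15 with a median of 0.0095, and dedicated chaperones of ribosomal proteins in 4 of 7 with a median of 0.017. Among 16 genes of upstream control, 6 were positive with a median of -0.0072. There the smallest p-values were those of the related transcription factors Mycn, at -0.23 (SE 0.096), and Myc, at 0.22 (SE 0.11). None of these genes passed the adjusted test.

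The mitochondrial ribosome, a separate machine with its own proteins, also had mostly positive values. Of 77 of its genes tested 62 were positive, with a median of 0.048, and 6 had an unadjusted p under 0.05, all higher in MI. The 2 with the smallest p were Mrps16 at 0.20 (SE 0.068) and Mrpl14 at 0.21 (SE 0.088). In the libraries with Y-linked counts its median was 0.079 and in those with Xist 0.037. No test of a difference between the 2 lists was made.

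Markers of other cells in the tissue were read beside these results. The summed microglial markers were 276 to 334 CPM in MI and 264 to 356 in Sham, with 5 of 7 positive and a median of 0.016. Astrocyte markers were 5395 to 6539 CPM and 5325 to 7356, with 2 of 6 positive and a median of -0.011. Meningeal fibroblast markers were 103 to 204 CPM in MI and 75.2 to 390 in Sham, with 0 of 8 positive and a median of -0.83. Endothelial markers were 187 to 213 CPM in MI and 173 to 207 in Sham, with 5 of 5 positive, a median of 0.072 and 1 gene at an unadjusted p under 0.05. Choroid plexus markers were 16.6 to 32.9 CPM in MI and 7.61 to 41.4 in Sham, with 2 of 2 tested genes positive and a median of 0.46 (Ttr at 0.78); Folr1, Kcne2 and Clic6 did not pass the count filter. Blood markers were 20.7 to 39.5 CPM and 17.0 to 38.0, with 4 of 5 positive and a median of 0.040. Of the neuronal lists, 6 of 7 CA1 markers, 1 of 3 pan-neuronal, 4 of 7 interneuron and 0 of 5 dentate markers were positive, with medians of 0.12, -0.0040, 0.045 and -0.46. Signs of some of these markers differed between the sex-linked sets. With Y-linked counts and with Xist, 0 and 7 of 8 meningeal markers were positive, with medians of -1.83 and 0.22. Positive dentate markers were 5 and 0 of 5 there, CA1 markers 6 and 1 of 7, and endothelial markers 5 and 4 of 5. The part of these cell types in the values of the ribosomal genes was not tested. Sham 1 was lowest by CA1 and highest by meningeal markers, and Sham 6 was highest by dentate markers. Leaving out both left 63 of 81 ribosomal genes positive with a median of 0.064. Sham 5, the highest of all libraries by CA1 markers, was kept there. Leaving out Sham 5 alone left 61 of 81 positive with a median of 0.063.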

How the data were processed

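RNA was measured in 12 CA1 libraries, 6 of MI and 6 of Sham, as polyadenylated RNA read single-end over 50 bases (protocols of the labels). The submitters' processing notes name STAR 2.5.2b, FastQC 0.11.5, Subread 1.5.1, featureCounts and mm10; settings for strand and multi-mapping reads were not given in the sources used here. Raw read counts per gene ID were deposited by the authors, with a pair of gene tables of log2 fold changes, log2-scale values per library and adjusted p-values, whose making was not given in the sources used here. GENCODE M21, on the same build, named 48349 of 48709 IDs and gave the coordinates and lengths. Counts were filtered (filterByExpr), scaled by TMM and tested by edgeR 4.0.16 (R 4.3.3) with the robust quasi-likelihood F test, two-sided and without covariates, with Benjamini-Hochberg adjustment over 16829 genes and a threshold of 0.05. CPM are edgeR values on TMM-scaled library sizes, log2 CPM used a prior count of 2, and RPKM divide CPM by exon length. The steps were tested on simulated data. Total counts per library ran from 20764133 to 35643127, and members had a median of 392.5 mean counts (16 under 100), which limits the precision of the shallow ones.

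Members and lists were chosen with earlier results of these data known. Named by rule were the 6 smallest p-values in each direction, the 4 highest and 4 lowest levels, members of the deposited tables, X-linked members, the 4 smallest interaction p-values and paralogue pairs, and 2 genes per other list; Rplp0 and the genes with extreme spreads were named after their values were seen. A few genes are not reported here. Polr1f, Polr1g and Polr1h were matched by older names, and Riok2 was not matched. No pair of libraries within a group was a duplicate (chi-square per degree of freedom 6.22 to 78.2 over 30 pairs). Alternatives, 25 in all for each fold change, were DESeq2 1.42.0, voom with sample weights (limma 3.58.1), other scalings, filters (strict: 50 counts in 6 libraries), the replicate number as a block, the sex-linked set as covariate or each set alone, leaving out Sham 1 and Sham 6, and each library left out in turn. Levels by principal transcript length, and classes by shared windows and depth, were added after seeing the data.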

Additional observations from a re-analysis of the deposited data

Results flagged for a closer look

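Among 78 groups of 6 libraries tested for a library far from the others, 4 had one, where chance gives about 1 in 20. Rpl3 was at 25.7 CPM in Sham 6, above the other Sham libraries. Rpl8 was at 194 CPM in MI 1, above the other MI libraries. Rps15 was at 94.5 CPM in Sham 2, above the other Sham libraries, and Rps4x at 27.9 CPM in MI 4, above the other MI libraries. Each gap to the nearest library, divided by the range of the group, exceeded Dixon's critical value for 6 libraries. No ribosomal protein gene passed the test of a difference between the sex-linked sets.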

How the results depend on the processing

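Under the 25 alternatives no ribosomal protein gene passed the adjusted threshold. The number with positive fold changes ran from 51 (libraries with Xist alone) to 67 (without MI 2) and the median from 0.035 (Xist) to 0.084 (Y-linked). Over all genes, DESeq2 called 10 and the Y-linked set alone 211, against 0; with Xist alone 1 member instead of 10 had an unadjusted p under 0.05. The stricter filter kept 74 members, of which 58 were positive. With the replicate number as a block, 0 genes were called, 64 members were positive, the median was 0.064 and 8 had an unadjusted p under 0.05; same-numbered libraries did not pair, with correlations from -0.35 to 0.405 and 1 of 6 numbers closest to its own partner. Over genes of the nuclear genome alone the share was 0.269% in MI and 0.260% in Sham. The median level was 11.6 RPKM by the longest transcript and 17.2 by the principal one.

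Of 871 values of 35 named genes, 33 in 13 genes changed sign, and the cause was not tested. With Xist alone the values were -0.0531 for Rpl14, -0.20 for Rpl24, -0.0481 for Rpl3, 0.0394 for Rpl36a, -0.0338 for Rpl7, 0.0214 for Rpl7l1, -0.0704 for Rplp1, -0.0306 for Rplp2, -0.00526 for Rps9, -0.0854 for Rpsa and 0.0204 for Rpl10. Rpl39 was at -0.11 with Y-linked counts alone and -9.32e-05 with voom. Rpl10 was at 0.0453 with voom, 0.00257 without a filter and 0.0636 without Sham 1 and Sham 6, where Rpl7l1 was at 0.00164. Leaving out 1 library changed the sign for Rpl10 (range -0.0563 to 0.0316), Rpl24 (-0.0356 to 0.0944), Rpl39 (-0.0573 to 0.12), Rpl7 (-0.000812 to 0.0454), Rpl7l1 (-0.0343 to 0.0116) and Rps23 (-0.17 to 0.00197). Members with few counts, such as Rps27, Rps29 and Rpl23a, had SEs near 0.20. Among members with 500 or more mean counts the highest log2 fold change was 0.16, which is below those SEs. None of these deeper genes passed either.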
